A study of Coturnix japonica with 29 samples.

Results

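The genes described here are the 100 well expressed genes whose level in the red cell portion of blood was lowest, relative to saline-injected females, in Japanese quail females (Coturnix japonica) injected with lipopolysaccharide (LPS). They were taken from 21561 Ensembl gene identifiers. Counts were divided by the library total to give CPM, the reads of a gene per 1000000 reads of the library, and 5852 genes had a median between 10 and 1000 CPM over the saline-injected females. These genes were ranked by the median of log2(CPM + 1) in the injected females minus the median in the saline-injected females, and the 100 most negative were kept, with rank 1 the most negative. The genes were thus selected on the measured difference between injected and saline-injected females, and their values in that contrast are a description.

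All birds were adult females, sampled from a wing vein after 3 h in the company of a male. In the group called F_LPS, 10 females had received LPS and met saline-injected males. In the group M_LPS, 10 females had received saline and met LPS-injected males, and in the group M_SAL, 9 females had received saline and met saline-injected males. The titles of F_LPS replicates 3 and 5 share a number, as do those of F_LPS replicate 1 and M_LPS replicate 2, and the labels do not say whether a shared number marks 1 bird. They list these as separate samples, which are counted so here. Over the CPM window defined above, the median absolute difference of log2(CPM + 1) was 0.310 between F_LPS replicates 3 and 5 and 0.309 for the other pair, against a median of 0.330 over all 406 pairs of libraries and a lowest value of 0.218. The M_LPS and M_SAL libraries are together called the 19 saline females. The sources used here give neither the LPS dose nor the strain, nor the time from injection to sampling.

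Circulating red cells of birds keep their nucleus, unlike those of mammals, and they go on transcribing genes besides those of haemoglobin. LPS, a glycolipid on the surface of Gram-negative bacteria, is sensed in birds and mammals by Toll-like receptor 4, which starts an inflammatory programme through NF-kB. White cells and thrombocytes, the nucleated counterpart of platelets in birds, travel in the same blood and can be carried into a red cell fraction. Levels here are shares of a library, so a smaller number of cells of one type and less RNA per cell cannot be told apart.

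The sources used here pair none of the 21561 identifiers with a gene symbol. The functions of the 100 genes, lists of pathway genes and cell type markers were therefore not analysed here, and the labelled tissue was not checked against markers. The 2 top-ranked identifiers are given in full, and other genes are called by their rank. Library totals ran from 8898747 to 14366101 reads. A gene of this set had a median of 272.5 reads in a library, and 7 of the 2900 values over 100 genes and 29 libraries were 0.

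The 100 genes spanned a wide range of differences, most of them small. The difference in log2(CPM + 1) was -2.28 at rank 1 and -2.15 at rank 2, and its median over the 100 genes was -0.78. It exceeded 1 log2 unit in size for 27 genes, and 51 lay between -0.8 and the end of the list. The list ended without a gap, at -0.65 for rank 99 and -0.64 for rank 100, with -0.64 for ranks 101 and 102. Over all 5852 genes of the CPM window the median difference was -0.06. Of the window, 61.3% of genes lay below 0, while the extremes were larger on the other side, with a 100th most positive difference of 1.09 and a largest of 6.34. With TMM scaling, the edgeR correction for uneven library composition, the median of the window was -0.0014, so the general shift depended on the scale. On that scale edgeR fold changes were above 0 for 49.2% of the window against M_SAL and for 53.6% against M_LPS.

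**Figure D1:**
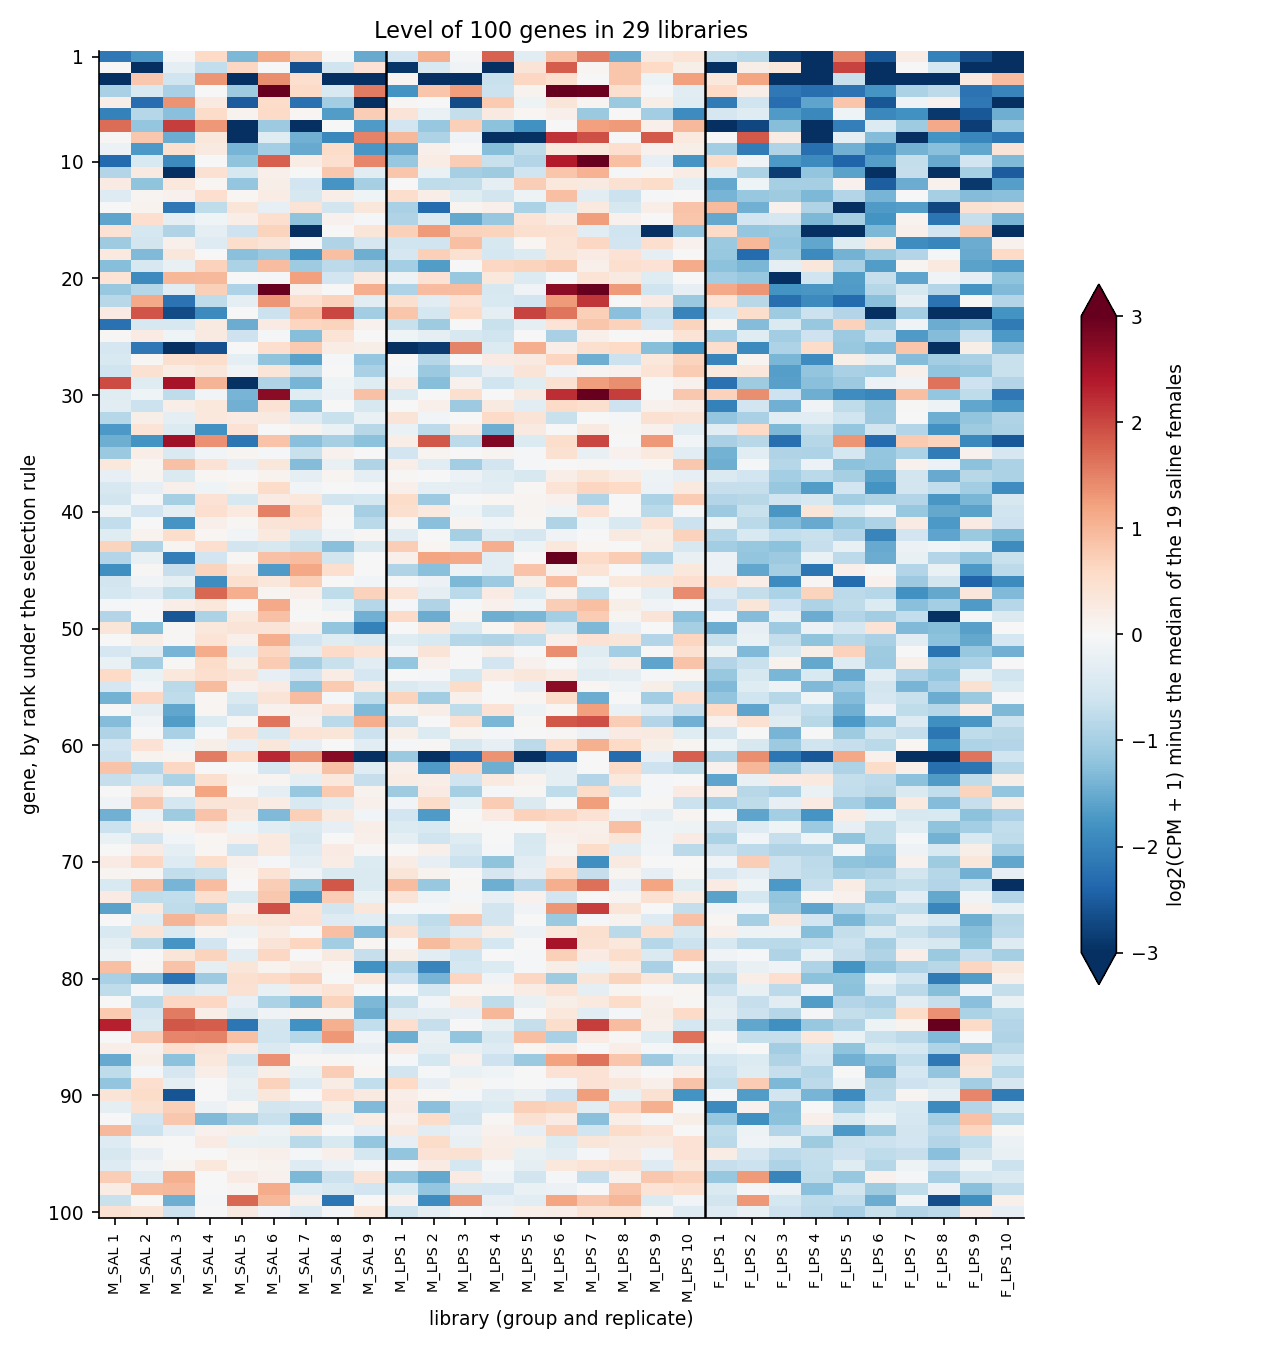
Level of each of the 100 genes (rows, by rank) in each of the 29 libraries (columns, by group), as log2(CPM + 1) minus the median of the 19 saline females, with blue for lower and red for higher levels and colours saturating at 3 in either direction. Libraries of F_LPS are blue in most rows, while the top rows, and rows such as rank 61, also hold dark blue cells among the saline females.

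The genes together took a small part of each library. Their share of reads in F_LPS ran from 0.365% to 0.544%, with a median of 0.425%. It ran from 0.620% to 1.25% in M_LPS, with a median of 0.688%, and from 0.591% to 0.848% in M_SAL, with a median of 0.652%. No F_LPS library overlapped a saline female, a separation that the choice of genes favours. The highest share, 1.25% in M_LPS replicate 6, owed 0.515 percentage points to ranks 44 and 77, and without those genes it was 0.735%. The other libraries above the rest were M_LPS replicate 7, at 0.966%, and M_SAL replicate 6, at 0.848%. Without these 3 libraries the saline females ran from 0.591% to 0.775%.

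The mean of log2(CPM + 1) over the 100 genes was 4.42 ± 0.24 (SD, n = 10) among the F_LPS libraries. Among the M_LPS libraries it was 5.25 ± 0.27 (SD, n = 10), and for M_SAL it was 5.10 ± 0.26 (SD, n = 9). The highest F_LPS libraries were replicate 2, at 4.86, replicate 7, at 4.68, and replicate 1, at 4.67. The lowest was replicate 8, at 4.11, and it was also the library with the lowest value of 23 of the 100 genes. Its TMM factor, the edgeR scaling factor that corrects for uneven library composition, was 0.776, the lowest of the 29. On TMM-scaled values its mean was 4.44 and the F_LPS libraries ran from 4.14 to 4.80, against 4.79 to 5.70 in the saline females, so the ranges then touched. On the CPM scale the lowest saline females were M_LPS replicate 2 and M_SAL replicate 9, both at 4.88, and M_SAL replicates 1, 3 and 7, at 4.89, 4.92 and 4.93.

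**Figure D2:**
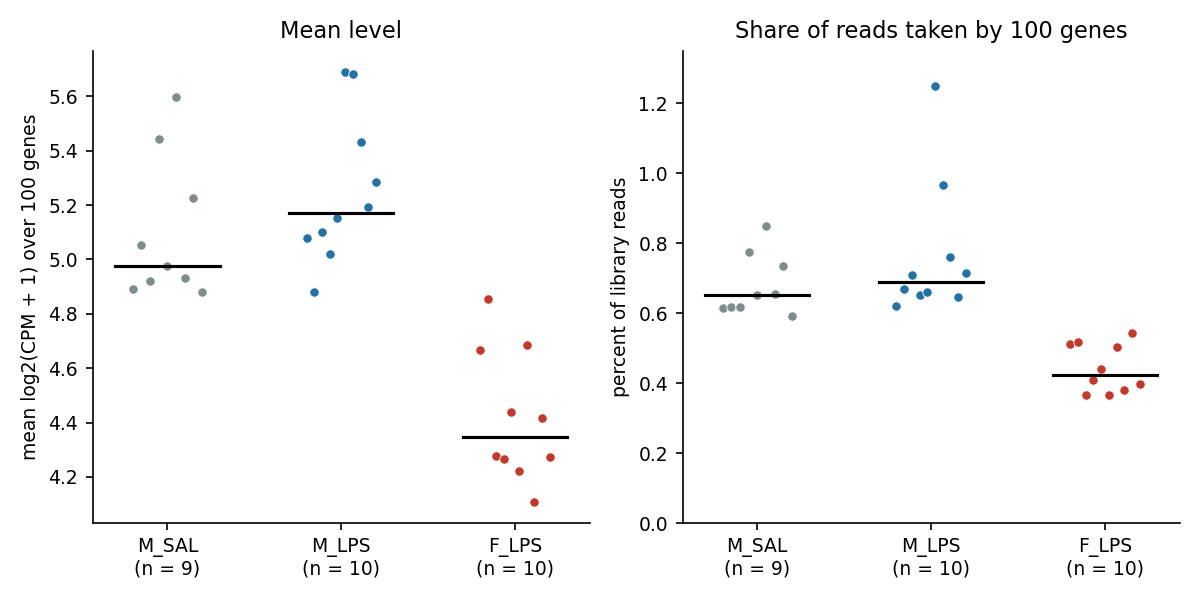
Each point is a library and each bar the group's median, with the mean log2(CPM + 1) over the 100 genes on the left and the percent of library reads they take on the right. All 10 F_LPS libraries lie below the saline females in both panels, which the choice of genes favours, and M_LPS replicate 6 stands highest on the right at 1.25%.

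The individual genes were less uniform than their mean. All 10 F_LPS libraries were below the median of the saline females for 24 of the 100 genes, beside 2.92% of the genes in the CPM window. For 20 genes at most 7 of the 10 were below it, and for 6 of these only 6 were. On the CPM scale every F_LPS library lay below every saline female for 1 gene, rank 38, which was also the only such gene in the window, 0.0171% of it. For 26 genes no F_LPS library lay below the lowest saline female.

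A test of each gene was made over all 9918 genes with enough counts (quasi-likelihood test in edgeR, with p adjusted by Benjamini-Hochberg and called below 0.05), and all 100 genes entered it. Against M_SAL, 8 of the 100 genes were called lower and none higher, beside 0.605% of all genes tested called lower and 1.7% called higher. In the CPM window 0.513% were called lower and 2.26% higher. Against M_LPS, 23 were called lower and none higher, beside 2.29% of all genes tested called lower and 4.4% called higher. In the window these shares were 1.4% and 4.99%. Both counts come from the contrast that chose the genes, and both comparisons use the same F_LPS libraries. The calls against both groups coincided for 7 genes, and 76 genes were called against neither. Thus 24 of the 100 were called lower in at least 1 comparison, and the others were chosen for a lower median without being called in either. The shares of all genes called in both comparisons or in either are not given here, so these combined counts are a description. At an unadjusted p below 0.05 the counts were 44 against M_SAL and 60 against M_LPS, beside 11.7% and 17.9% of all genes tested. DESeq2 called 12 lower against M_SAL, beside 1.15% of all genes tested, and limma voom with quality weights for libraries also 12, beside 0.615%. Against M_LPS they called 36 and 26 lower, beside 3.37% and 1.98%. Neither tool called any of the 100 higher, where DESeq2 called 2.38% of all genes against M_SAL and 5.24% against M_LPS, and limma voom 2.82% and 4.48%. Without M_SAL replicate 4 the edgeR count against M_SAL was 5, beside 0.53% of all genes tested in that fit. Without M_SAL replicate 6 and M_LPS replicates 6 and 7 the count against M_LPS was 15, beside 0.968%.

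The called genes were not those at the top of the ranking. The 8 genes called against M_SAL were ranks 13, 25, 37, 38, 42, 51, 54 and 86. Their log2 fold changes against M_SAL ran from -1.02 to -0.70, or 1.62-fold to 2.02-fold lower, and against M_LPS from -1.07 to -0.59. Rank 51 was the one not called against M_LPS. Among ranks 1 to 12 none was called against M_SAL and 2 were called against M_LPS.

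Rank 38 had the cleanest separation on the CPM scale. Its level in F_LPS was 67.8 CPM in the lowest library, 137 CPM at the median and 173 CPM in the highest. In M_LPS it was 197, 268 and 395 CPM, and in M_SAL 181, 247 and 367 CPM. The highest injected female was thus below the lowest saline female of either group on the CPM scale. TMM scaling divides F_LPS replicate 8, at 151 CPM, by 0.776 and M_LPS replicate 3, at 204 CPM, by 1.10. The order of these libraries then changes, so the ranges overlap on that scale. Its log2 fold change was -0.92 (SE 0.18) against M_SAL and -1.07 (SE 0.17) against M_LPS.

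Rank 37 was nearly as clean and had the smallest spread among the saline females of the 100 genes, an SD of 0.24 log2 units. Its level in F_LPS was 44.3 CPM in the lowest library, 73.9 CPM at the median and 101 CPM in the highest. In M_LPS it was 97.6, 130 and 176 CPM, and in M_SAL 102, 139 and 148 CPM. Only F_LPS replicate 1, the highest, reached above the lowest saline female. Its log2 fold change was -0.75 (SE 0.12) against M_SAL and -0.81 (SE 0.12) against M_LPS.

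Rank 13 was the gene with the largest difference among the 8. Its level in F_LPS was 27.1 CPM in the lowest library and 31.3 CPM at the median, and 9 of the 10 libraries were at 38.8 CPM or less. F_LPS replicate 7 was apart from them, at 73.0 CPM. The saline females started at 46.1 CPM in M_LPS, with a median of 68.3 and a highest value of 136 CPM, and at 52.2 CPM in M_SAL, with a median of 76.4 and a highest value of 104 CPM. On the CPM scale F_LPS replicate 7 therefore lay inside both saline ranges while the other injected females lay below them. TMM scaling divides F_LPS replicate 8, at 36.0 CPM, by 0.776 and M_LPS replicate 8, at 46.1 CPM, by 1.11, and their order then changes. The log2 fold change was -1.02 (SE 0.20) against M_SAL and -1.01 (SE 0.19) against M_LPS, and without F_LPS replicate 7 it was -1.17 and -1.16.

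Rank 42 was less abundant than ranks 13, 37 and 38. In F_LPS it was at 4.96 CPM in the lowest library, 11.9 CPM at the median and 16.2 CPM in the highest. In M_LPS it was at 10.8, 21.7 and 37.2 CPM and in M_SAL at 16.5, 23.3 and 32.7 CPM. On the CPM scale all F_LPS libraries were below every M_SAL library, but 6 of the 10 lay above the lowest M_LPS library. TMM scaling, with factors of 1.04 and 1.11, changes the order of F_LPS replicate 2 and M_SAL replicate 7. The log2 fold change was -0.99 (SE 0.20) against M_SAL and -0.92 (SE 0.19) against M_LPS.

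The genes at the top of the ranking had wide ranges in every group. ENSCJPG00005013545, rank 1, was at 1.05 CPM in the lowest F_LPS library, 6.33 CPM at the median and 97.5 CPM in F_LPS replicate 5, the highest. In M_LPS it was at 11.5, 43.5 and 119 CPM and in M_SAL at 6.96, 33.4 and 75.5 CPM. The highest injected female was above all M_SAL libraries, and 5 of the 10 were below every saline female. The log2 fold change, which is fitted to group means, was -0.59 (SE 0.63) against M_SAL and -1.40 (SE 0.63) against M_LPS, and neither passed the test. Without F_LPS replicate 5 these values were -1.41 and -2.23, and the second then passed (edgeR adjusted p = 0.0155). In the other settings neither passed, with adjusted p up to 0.945 against M_SAL and 0.479 against M_LPS.

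ENSCJPG00005003340, rank 2, was split in the injected females. It was below 5 CPM in 5 of them, the lowest at 0.769 CPM, and between 23.9 and 144 CPM in the other 5. It was also below 5 CPM in 2 M_LPS libraries and 2 M_SAL libraries, where the medians were 37.6 and 28.3 CPM. The mean of the injected females was 29.1 CPM ± 44.1 (SD, n = 10). That of M_SAL was 27.6 CPM ± 17.2 (SD, n = 9) and that of M_LPS 42.2 CPM ± 34.6 (SD, n = 10). The mean of the injected females was thus lower than that of M_LPS but not than that of M_SAL. Their median, 12.7 CPM, was lower than those of both groups. The log2 fold change was 0.12 (SE 0.80) against M_SAL and -0.45 (SE 0.78) against M_LPS. These values depended on single libraries. Without F_LPS replicate 5, which held the 144 CPM, they were -0.73 and -1.30. Without M_LPS replicate 6, which held 124 CPM, the change against M_LPS was -0.09. With limma voom the change against M_SAL was -1.10, and without M_SAL replicate 2 or M_SAL replicate 7 it was -0.03 or -0.02. With all libraries in the edgeR fit, rank 2 was the only gene of the 100 above 0 against M_SAL, and 3 genes were above 0 against M_LPS.

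Ranks 3 and 16 were close to all or none. Rank 3 was at or below 1.01 CPM in 5 F_LPS, 2 M_LPS and 4 M_SAL libraries, and between 11.1 and 49.1 CPM in all the others, with nothing in between. Rank 16 had no read in 3 F_LPS libraries, in M_LPS replicate 9 and in M_SAL replicate 7. A count of 0 allows a level of up to 0.209 to 0.337 CPM, 3 reads of the library total, and covers counting error only. In the other libraries rank 16 was between 11.8 and 78.5 CPM, so libraries with no read and libraries well above the floor occurred in all 3 groups. Rank 11 was different, with no read in M_SAL replicate 3 alone and at least 16.1 CPM in the other 18 saline females, while F_LPS ran from 1.68 to 27.7 CPM.

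**Figure D3:**
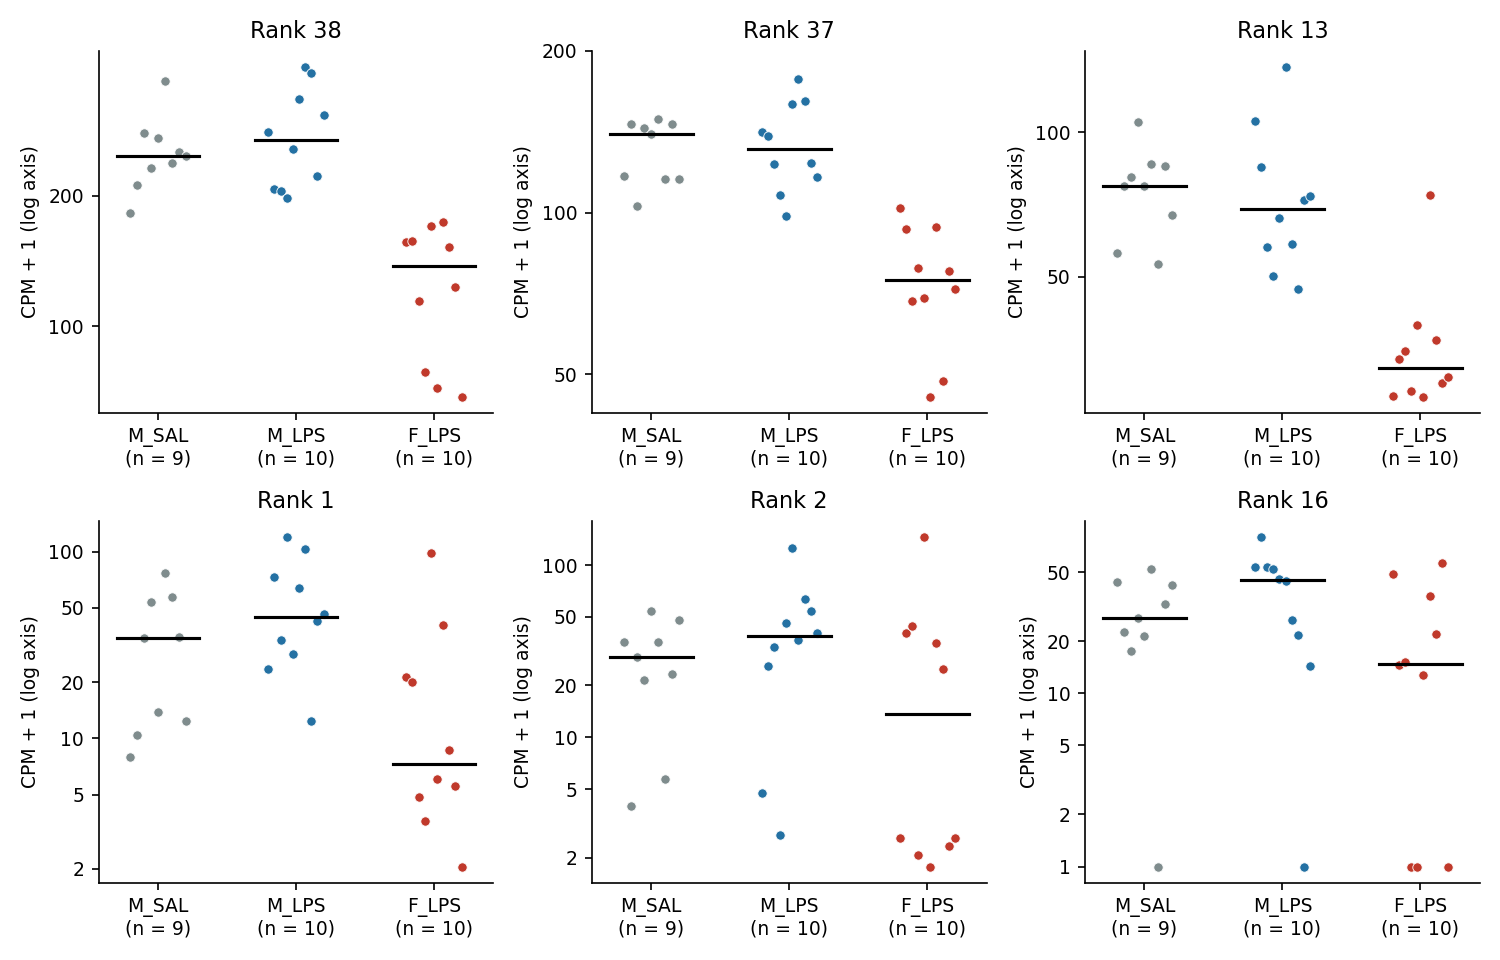
Level in each library (points, CPM + 1 on a log axis) and group median (bars) of 3 genes called lower in F_LPS, ranks 38, 37 and 13, and of 3 genes not called, ranks 1, 2 and 16. In the upper row F_LPS lies below the saline females except for replicate 1 in rank 37 and replicate 7 in rank 13. In the lower row the groups overlap, with libraries below 5 CPM in every group for ranks 2 and 16 and in F_LPS alone for rank 1.

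Spread among the saline females was wide for many of the 100 genes, though not for all. The SD of log2(CPM + 1) within the saline groups had a median of 0.70 over the 100 genes and of 0.33 over the CPM window. It was above 1 for 23 of the 100 genes and for 2.39% of the window. Among ranks 1 to 12 it was above 1 for 9, with a median of 1.41. It was larger than the difference that chose the gene for 28 of the 100. The SD within F_LPS had a similar median of 0.71, beside 0.36 over the window. The rule used these same libraries and did not scale the difference by spread. It thus favours genes that vary widely, and these SDs are a description.

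An SD below 0.5 was found for 25 of the 100 genes and for 81.9% of the window. Of these 25 genes, 7 were called lower against M_SAL and 16 against M_LPS, beside 0.605% and 1.42% of the window genes with such an SD. Of the 23 genes with an SD above 1, none was called against M_SAL and 3 were called against M_LPS, beside 0% and 2.14% of the window genes with such an SD. The contrast that chose the genes enters these counts, which are a description. Steps in level, as in ranks 3, 11 and 16, were counted as a gap of at least 2 log2 units between neighbouring saline females, and these 3 were the only ones among the 100, beside 0.957% of the window. The genes were also somewhat less abundant than the window, with a median of 32.0 CPM in saline females against 49.8 CPM. Of the 100, 36 were below 20 CPM and 20 above 100 CPM.

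**Figure D4:**
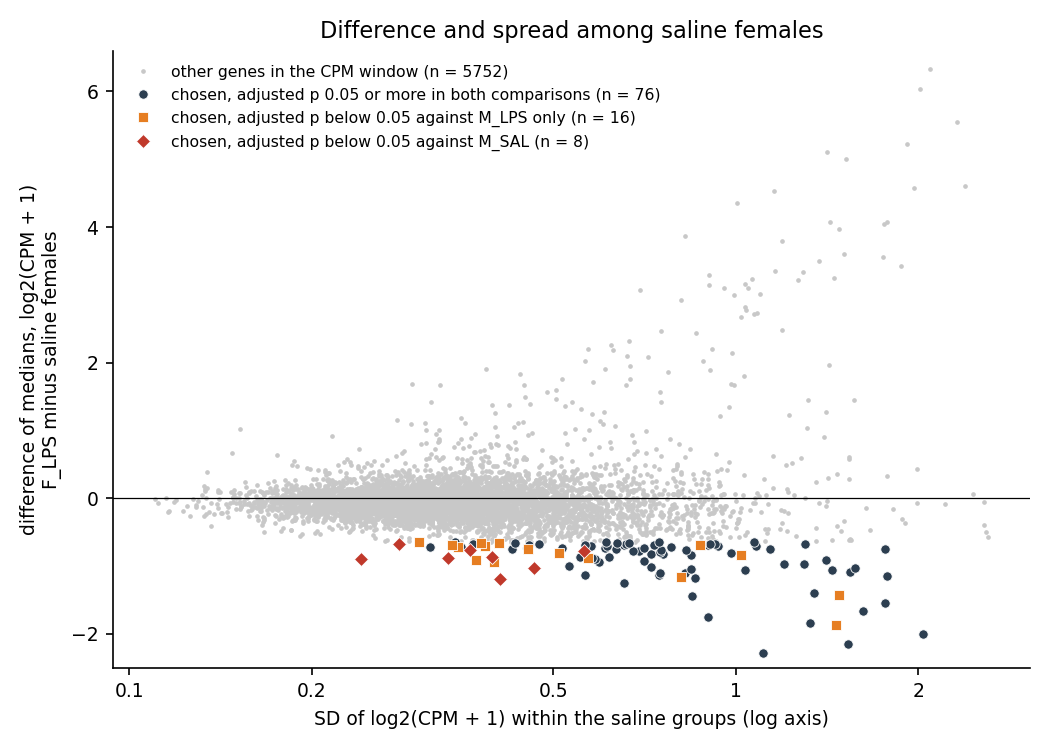
Each point is a gene of the CPM window, with the SD of log2(CPM + 1) within the saline groups on a log axis and the difference of medians between F_LPS and the saline females, which chose the genes, on the other axis. The 8 genes called against M_SAL (red diamonds) lie at SDs of 0.24 to 0.56, while genes with the most negative differences reach SDs of 2.04.

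The comparison of M_LPS with M_SAL asks whether meeting an injected male alone goes with a difference in these genes, and it did not choose them. No gene of the 100 was called (edgeR adjusted p of 0.775 or more), beside 0% of the 9918 genes tested, and limma voom, which also called 0% of all genes, called 0 of the 100. DESeq2 called 0 of the 100, beside 0.302% of all genes lower and 0.0101% higher. By edgeR at an unadjusted p below 0.05 there were 3 of the 100, beside 4.31% of all genes tested. The median log2 fold change over the 100 was 0.11, beside -0.03 over the CPM window and -0.01 over all genes tested. It was above 0 for 66 of the 100 and for 43.1% of the window. Without M_SAL replicate 6 and M_LPS replicates 6 and 7, where the 100 genes took the largest shares of reads, the median over the 100 was 0.02. Leaving out high M_LPS libraries favours such a fall. This was the lowest value of all settings, and the highest was 0.15, with upper-quartile scaling. A margin of 2 standard errors on either side of a gene's estimate had a median of 0.64 over the 100 and ran from 0.25 to 1.87. Smaller differences in single genes could thus be missed with these libraries. Larger ones could be missed too, since the margin takes no account of the adjustment over 9918 genes.

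The 3 genes with an unadjusted p below 0.05 were ranks 44, 77 and 94, all higher in M_LPS. Rank 94 was at 24.1, 38.2 and 47.8 CPM in the lowest, median and highest M_LPS library and at 13.8, 27.4 and 38.2 CPM in M_SAL. Its change between those groups was 0.47 log2 units (SE 0.17; adjusted p = 0.775 by edgeR). In F_LPS it was at 14.9, 20.1 and 30.1 CPM, inside the M_SAL range from end to end, and it was called lower against M_LPS and not against M_SAL. Rank 44 was at 157, 390 and 2447 CPM in M_LPS and at 70.5, 257 and 577 CPM in M_SAL. Its change was 1.08 log2 units (SE 0.40; adjusted p = 0.833 by edgeR), and without M_LPS replicate 6, which held the 2447 CPM, it was 0.50. Rank 77 also had its highest value in that library, 2702 CPM against 767 CPM in the highest M_SAL library.

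The largest difference in the other direction was in rank 61. It was at 6.83, 22.0 and 238 CPM in the lowest, median and highest M_LPS library and at 7.02, 99.1 and 455 CPM in M_SAL. The change was -1.32 log2 units (SE 0.76), with an unadjusted p of 0.096 by edgeR, and did not pass the adjustment. In F_LPS it was at 6.90, 40.4 and 208 CPM. The 3 ranges started at nearly the same level and overlapped, and the median of the injected females lay between those of the saline groups. Against M_SAL its log2 fold change was -1.02 (SE 0.76) and against M_LPS 0.30 (SE 0.74), with neither passing. Single libraries moved both, to -0.63 against M_SAL without M_SAL replicate 8, and against M_LPS to -0.06 without F_LPS replicate 9 and 0.81 without M_LPS replicate 10.

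The 8 genes called against M_SAL had log2 fold changes of M_LPS against M_SAL from -0.28 to 0.15. Of the 23 genes called against M_LPS, 18 were higher in M_LPS than in M_SAL, with a median of 0.15. Both sets were called with the same saline libraries, so these values are given as a description.

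The genes did not vary as 1 group among the saline females. After centring each saline group at its mean, the median correlation (Pearson's r) of the 4950 pairs of genes over the 19 libraries was 0.11, beside 0.09 for pairs of genes in the CPM window. It was above 0.5 for 7.07% of the pairs, beside 8.16% in the window. These values share libraries and depth and are a description. Average linkage at a height of 0.5 put 35 of the 100 genes into 5 blocks of at least 5 genes, and 65 stood outside. Within a block the median r was 0.67 over the saline females, which formed the blocks. Over the 10 F_LPS libraries, which did not, it was 0.35 for pairs in a block and 0.09 for other pairs. It differed between the blocks, called A to E below, at 0.35 in A, 0.26 in B, 0.45 in C, 0.17 in D and 0.44 in E.

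Block A held 9 genes, among them ranks 4, 10, 44 and 77, and followed a few saline females. Its mean log2(CPM + 1) was 7.32 in M_LPS replicate 6, 7.29 in M_LPS replicate 7 and 7.01 in M_SAL replicate 6, and between 3.79 and 5.93 in the other 16 saline females. F_LPS ran from 3.55 to 5.28, with a median of 3.97, and overlapped the range of those 16 but lay below the 3 highest. Of its genes 4 were called against M_LPS and none against M_SAL.

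Block C held 7 genes, among them ranks 37 and 38, and was the steadiest. Its mean was 5.18 to 6.41 in the saline females and 4.43 to 5.57 in F_LPS, with medians of 5.69 and 4.94. The groups overlapped at the edges, through F_LPS replicates 7 and 2. It held 3 of the 8 genes called against M_SAL and 5 of the 23 called against M_LPS. Its median r was 0.62 over the saline females and 0.45 over F_LPS.

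Blocks B, D and E varied between single birds of every group. Block B, 7 genes with rank 11 among them, was at 2.63 in M_SAL replicate 3 and at 4.17 to 5.97 in M_LPS, against 3.13 to 4.98 in F_LPS. Block D, 6 genes with rank 3 among them, was at 3.40 to 5.61 in M_LPS, 3.63 to 5.83 in M_SAL and 3.40 to 4.98 in F_LPS. Block E, 6 genes with rank 7 among them, was split within M_SAL, from 3.17 in replicate 5 to 6.44 in replicate 3. In F_LPS it reached 5.80 in replicate 8, the library lowest in blocks B and C, and ran from 3.23 to 4.78 in the others. None of the genes of these 3 blocks was called against M_SAL, and 1 was called against M_LPS.

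**Figure D5:**
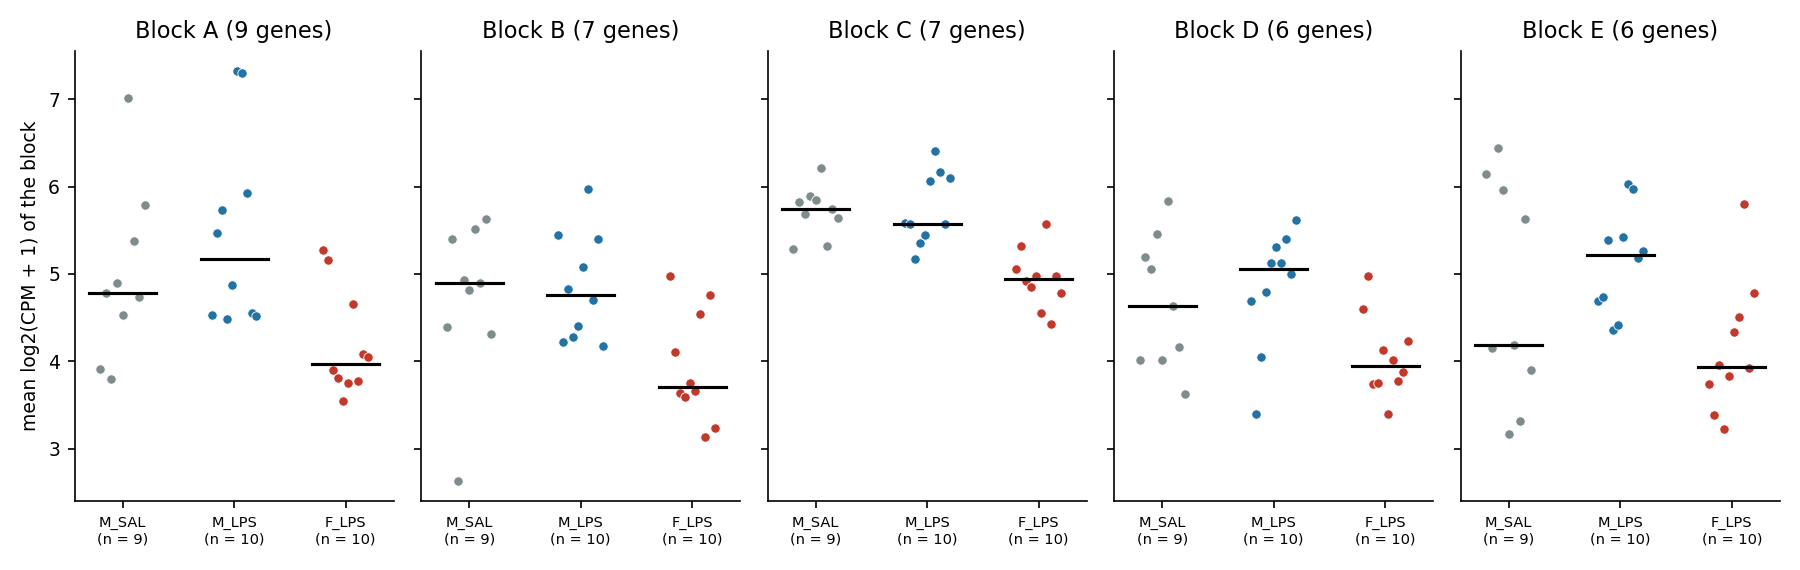
Mean log2(CPM + 1) of the genes of each block in every library (points) with the group median (bars), for the 5 blocks of genes that varied together among saline females. Block C shows the least spread, block A has 3 saline libraries above 7, and in block E M_SAL runs from 3.17 to 6.44.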

How the data were processed

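The table deposited by the authors holds unnormalized counts, whole reads for each Ensembl identifier, for 29 libraries of the red cell portion of blood. Per the submitters' processing notes CASAVA 1.8.2, HISAT2 and DESeq2 were used, in roles not stated. No source used here gives the counter, build, annotation or strand setting, so reads of overlapping genes or near-identical copies could not be told apart. Per the labels' protocols RNA was column-purified with DNase treatment before library preparation with a NEBNext Ultra kit. Columns were tied to samples by title and grouped by the treatment labels. Replicates were numbered in accession order and pair nothing. The labels name no batch. P-values set a group difference against the spread between these libraries, with each library counted as a separate bird.

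Genes were chosen on CPM of the library total with a pseudocount of 1. Tests used edgeR 4.0.16 in R 4.3.3 (filterByExpr, TMM, robust quasi-likelihood, 3 groups in 1 fit, adjustment over 9918 genes). DESeq2 1.42.0, with its own size factors, and limma 3.58.1 voom with quality weights, which weight each library, were alternatives. The latter is called limma voom here. Unless another tool is named, fold changes are from edgeR and of TMM-scaled counts. Each standard error is the size of the log2 fold change over the square root of F. The edgeR test was also run on simulated counts with the same spread for every gene. Spread differs widely between the 100 genes, so that run does not vouch for their calls. Other alternatives were RLE, upper-quartile or library-total scaling, no filter, 5 CPM in 9 libraries, the compared groups alone, and libraries left out. The rule was also applied with pseudocounts of 0.5 and 5, TMM-scaled CPM, means, and either saline group alone. The 100 genes, lists and tests were chosen with earlier results of these data known. The naming rule took the 2 most negative identifiers, and the other ranks were chosen after their values were seen. The gene lists needed symbols and were not used.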

Additional observations from a re-analysis of the deposited data

Results flagged for a closer look

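In 57 sets of library values, one for each measure and group, 5 had one library set far apart from the others of its group. Chance would give about 1 in 20 such sets, or 2.85, if the sets were independent and not chosen on their values. Most of the genes among them were chosen after their values were seen, and some sets share genes. The count of 5 can therefore not be read against 2.85. For rank 13, F_LPS replicate 7 was at a log2(CPM + 1) of 6.21 and the next library of its group at 5.31. For rank 16, M_LPS replicate 9 was at 0, with no read, and the next library of its group at 3.84. M_SAL replicate 7 was also at 0 for that gene, and the next at 4.13. For rank 11, M_SAL replicate 3 was at 0 and the next library of its group at 4.28. The same library had a mean of 2.63 over block B, which holds rank 11, where the next M_SAL library was at 4.31.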

How the results depend on the processing

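The count of the 100 genes called lower against M_SAL, 8, was 5 with the compared groups alone in the fit, beside 0.149% of all genes tested there. It was 5 to 11 with single libraries left out, lowest without M_SAL replicate 4, beside 0.53% and 0.667% of all genes at those ends. It was 12 with DESeq2 and with limma voom, beside 1.15% and 0.615%. The count against M_LPS, 23, was 36 with DESeq2, beside 3.37% of all genes. It was 15 when M_LPS replicates 6 and 7 and M_SAL replicate 6 were left out, beside 0.968%. It was 16 to 29 with single libraries left out, lowest without M_LPS replicate 6, beside 1.38% and 2.32%, and 33 with upper-quartile scaling, beside 3.37%. Without F_LPS replicate 3 or 5, whose titles share a number, the count against M_SAL was 6 in both cases, beside 0.465% or 0.475% of all genes. Against M_LPS it was then 18 or 19, beside 1.69% or 1.76%. No alternative called any of the 100 higher in F_LPS, which the choice of genes favours. None called 1 in M_LPS against M_SAL. Of all genes tested there, the main edgeR fit and limma voom called 0%, and DESeq2 0.302% lower and 0.0101% higher. The shares in the other settings are not given here. Ranks 13, 37, 38 and 42 passed in both comparisons under all 39 alternatives. For rank 16, with libraries at 0, the log2 fold change against M_SAL was -0.44 by edgeR and -2.33 by limma voom, called by neither, and the cause was not tested.

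The choice of genes moved more. Of the 100, 97 were chosen again with a pseudocount of 0.5, 82 with 5, 79 on TMM-scaled CPM, 65 with means in place of medians, 63 against M_SAL alone and 65 against M_LPS alone. Leaving out M_SAL replicates 1 and 3 kept 78, leaving out M_SAL replicate 6 and M_LPS replicates 6 and 7 kept 83, and leaving out F_LPS replicate 8 kept 83. Under all of these 32 were chosen, with 5 of the 8 and 11 of the 23 called genes among them. The median correlation among saline females, 0.11, ran from 0.07 to 0.12. No paired analysis was made because the labels state no pairing of samples between the groups. Depth was limiting for few values, since 1.45% of those of the 100 genes rested on under 20 reads. Genes near the top of the list held some of them, as the lowest counts of ranks 1, 2, 3 and 16 were 10, 11, 2 and 0 reads.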
